A study of Mus musculus with 12 samples.

Results

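The genes described here are 7 markers of the F3-positive regulatory stromal cell of fat: F3, Clec11a, Mgp, Eln, Fmo2, Cygb and Meox2. They were chosen by symbol from a list of markers of that subset, and they are 7 of the 14398 genes in the deposited count table. All 7 passed the filter on low counts and are among the 14266 genes tested, with 200 to 52965 reads per gene and library.

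F3 encodes tissue factor, also called CD142, the cell-surface receptor that starts the extrinsic pathway of blood coagulation. In mouse fat, F3 at the surface marks a stromal population within the adipocyte precursor gate, known as adipogenesis-regulatory cells because they were described to restrain the conversion of neighbouring precursors into fat cells. Other work on fat found F3-positive cells able to form fat cells themselves, so the function of the subset is debated. The remaining markers encode secreted and matrix proteins (Clec11a, Mgp, Eln), intracellular enzymes and a haem protein (Fmo2, Cygb) and a homeobox transcription factor (Meox2).

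The RNA-seq libraries came from adipocyte precursors, stromal cells that can become fat cells. They were sorted from perigonadal visceral fat (VWAT) or inguinal subcutaneous fat (SWAT) of male C57Bl6/J mice aged 6 to 8 weeks. The sort kept CD29+, CD34+ and Sca1+ cells that lacked the blood marker CD45 and the endothelial marker CD31, with or without CD24, so F3-positive cells were not separated from other precursors. The 4 groups were VWAT of mice on a high-fat diet (HFD, 60% lard, for 3 days), VWAT of mice on a standard diet (SD), SWAT on HFD and SWAT on SD, with 3 libraries each and tissue of 3 mice pooled in each library. The labels also give a time, day 3 for HFD libraries and day 0 for SD libraries, and any difference that this label marks cannot be told apart from the diet. The labels do not say whether libraries of a group came from separate cohorts or days, so p-values measure the spread between these pools. In bulk RNA, fewer cells of a subset and less RNA per cell cannot be told apart, and no count of F3-positive cells is used here.

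Reads counted in genes numbered 17.6 M to 56.1 M per library (M, 1e6), and the shallowest were SWAT HFD library 1 (17.6 M) and SWAT SD library 3 (22.2 M). On the second principal component VWAT HFD library 3 lay at 2.0, apart from the other VWAT HFD libraries at -37.0 and -46.0 and below the VWAT SD libraries at 24.4 to 32.3. Summed leukocyte markers (10 genes) were 7.96 to 11.0 CPM in VWAT HFD, 11.6 to 18.2 CPM in VWAT SD, 13.6 to 46.5 CPM in SWAT HFD, where library 2 was the highest, and 12.6 to 15.4 CPM in SWAT SD. CPM are counts per 1e6 counts after TMM scaling. The 4 adipocyte markers in the table summed to less than 5 CPM in each library.

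Reference promoters were available for F3, Clec11a, Fmo2 and Meox2, and are shown because these 4 genes took opposite sides between the depots. Each sequence is the 250 bases before the gene start in RefSeq on mouse build GRCm38.p6, written along the gene's strand. F3 lies on the plus strand (chr3:121723287-121723536), Clec11a on the minus strand (chr7:44306960-44307209), Fmo2 on the minus strand (chr1:162898759-162899008, before the more upstream of its starts) and Meox2 on the plus strand (chr12:37108290-37108539). Capitals mark matches, on either strand, to 5 short motifs: the TATA box TATAAA, the GC box GGGCGG, the AP-1 site TGANTCA, the GATA site AGATAA and the CCAAT box CCAAT.
F3: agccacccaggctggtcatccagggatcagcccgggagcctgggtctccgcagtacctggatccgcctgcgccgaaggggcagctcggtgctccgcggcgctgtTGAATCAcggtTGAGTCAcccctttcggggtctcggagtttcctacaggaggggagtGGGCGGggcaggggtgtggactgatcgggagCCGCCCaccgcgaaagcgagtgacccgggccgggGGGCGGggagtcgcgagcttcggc
Clec11a: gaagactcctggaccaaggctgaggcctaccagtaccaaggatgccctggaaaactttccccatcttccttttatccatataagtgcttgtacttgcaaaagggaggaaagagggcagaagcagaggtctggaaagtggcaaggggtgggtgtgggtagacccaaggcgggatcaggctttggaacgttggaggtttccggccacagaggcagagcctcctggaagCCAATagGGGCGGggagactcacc
Fmo2: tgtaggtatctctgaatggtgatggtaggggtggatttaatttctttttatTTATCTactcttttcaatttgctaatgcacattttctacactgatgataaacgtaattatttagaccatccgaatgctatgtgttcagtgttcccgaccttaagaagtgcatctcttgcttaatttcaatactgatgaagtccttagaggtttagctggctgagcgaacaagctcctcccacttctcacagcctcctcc
Meox2: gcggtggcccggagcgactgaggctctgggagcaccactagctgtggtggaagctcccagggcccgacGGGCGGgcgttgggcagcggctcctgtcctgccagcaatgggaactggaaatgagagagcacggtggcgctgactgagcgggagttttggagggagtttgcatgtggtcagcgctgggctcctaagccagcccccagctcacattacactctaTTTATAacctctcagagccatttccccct

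The F3 window held 3 GC boxes, at -89, -58 and -24 bases from the start, and 2 AP-1 matches at -146 and -135. Clec11a had a CCAAT box at -24 next to a GC box at -17. Fmo2 had 1 GATA match on the other strand at -199 and none of the other motifs, and Meox2 had a TATA box on the other strand at -29 and a GC box at -182. Of 32851 windows of the same length, 32.7% held a GC box, 6.75% an AP-1 match, 33.8% a CCAAT box, 9.99% a GATA match and 12.4% a TATA box. Base composition also differed, with 70.0% G or C in the F3 window, 62.0% in Meox2, 55.6% in Clec11a and 39.6% in Fmo2. The windows of F3 and Fmo2, both higher in VWAT, shared none of the 5 motifs, whereas those of Clec11a and Meox2, both lower in VWAT, shared the GC box, which the F3 window held too.

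The 7 markers did not move together between the depots. On each diet F3, Mgp and Fmo2 were higher in VWAT precursors than in SWAT precursors, Clec11a and Meox2 were lower, and Cygb and Eln did not pass the test. The largest differences were in opposite directions: Meox2 was 5.29-fold lower in VWAT on HFD and 7.19-fold lower on SD, and Mgp was 5.67-fold higher on HFD and 5.68-fold higher on SD. So 5 of 7 markers passed on HFD, where 26.8% of all genes tested did (13.4% higher and 13.4% lower), and 5 of 7 on SD, where 25.7% did (13.2% higher and 12.5% lower), in edgeR's quasi-likelihood test with Benjamini-Hochberg adjustment over all genes at 0.05. The 5 markers were the same on both diets, with the same signs, and each of them also passed in all 20 alternative fits on either diet. The same shares of all genes stand beside the depot counts of the other gene lists below. The comparisons on HFD and SD share no library, but all groups were scaled and fitted together. The tests on the diets therefore share the estimate of each gene's spread and are not independent. The median log2 difference of the 7 was 0.50 on HFD and 0.46 on SD, against 0.02 over all genes on each diet. Both medians were the value of Eln, which did not pass, so they do not show a shift shared by the 7.

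**Figure D1:**
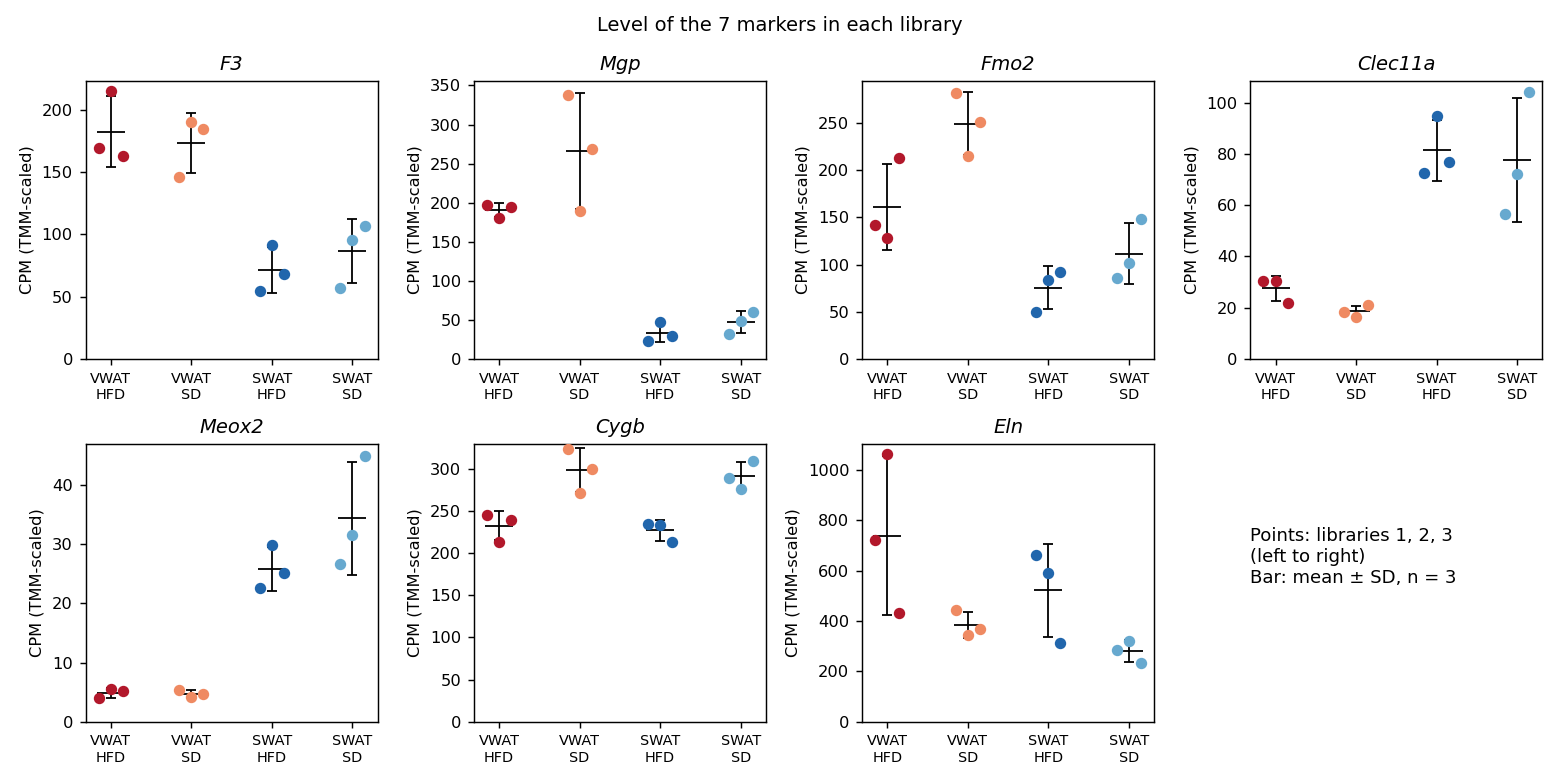
TMM-scaled CPM of each marker in the 12 libraries (vertical axis, starting at 0; each panel has its own scale), by depot and diet; points are libraries and bars the mean ± standard deviation of 3 libraries. F3, Mgp and Fmo2 have their higher points in VWAT, Clec11a and Meox2 in SWAT, and Cygb lies between 213 and 323 CPM in every library.

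Tissue factor is the surface protein that names the subset. F3 had 169, 215 and 163 CPM in VWAT HFD libraries 1 to 3 and 146, 190 and 185 CPM in VWAT SD libraries, against 54.4, 91.6 and 68.5 CPM in SWAT HFD and 57.4, 95.7 and 107 CPM in SWAT SD. Every VWAT library was above every SWAT library, and within each depot the diets overlapped. The group means were 182 ± 28.7 CPM in VWAT HFD, 174 ± 24.0 CPM in VWAT SD, 71.5 ± 18.8 CPM in SWAT HFD and 86.8 ± 26.1 CPM in SWAT SD, where ± is the standard deviation over 3 libraries. F3 was 2.54-fold higher in VWAT on HFD (log2 1.35, SE 0.228, adjusted p = 0.00057) and by a log2 of 1.00 on SD (95% interval 0.51 to 1.49, SE 0.226, adjusted p = 0.00473). In both depots the interval of the diet difference included 0. On the log2 scale the difference was 0.07 in VWAT (95% interval -0.41 to 0.55, adjusted p = 0.867) and -0.27 in SWAT (-0.76 to 0.21, adjusted p = 0.623). The VWAT value turned to -0.04 with scaling by library size alone or without VWAT SD library 1 and to -0.07 without VWAT HFD library 2.

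Of 17 genes of the tissue factor pathway and its receptors and inhibitors, F3 among them, 12 were tested. In VWAT 6 were higher and 1 lower on HFD, and 7 were higher and 2 lower on SD. Those higher on both diets, next to F3, were F5 (coagulation factor V, the cofactor of factor Xa, 3.64 ± 0.686 CPM in VWAT HFD against 0.224 ± 0.182 CPM in SWAT HFD, adjusted p = 6.6e-06 on HFD and 5.58e-06 on SD), Tfpi (the main inhibitor of the tissue factor complex, log2 0.88 on HFD and 0.87 on SD), F2r (the thrombin receptor PAR1, 2.40 and 2.14), Thbd (thrombomodulin, which binds thrombin, 1.12 and 1.02) and F2rl1 (PAR2, 1.96 and 1.43, under 1 CPM, with an adjusted p of 0.0605 on SD with the replicate number as a block). Procr, the endothelial protein C receptor, was lower on both (-1.70 on HFD, adjusted p = 5.82e-07, and -2.19 on SD, adjusted p = 6.35e-08). The other gene lower on SD was Tfpi2, and the count of 2 became 1 without VWAT HFD library 2, VWAT SD library 1 or 3, or any of the 3 SWAT SD libraries, and Tfpi2 was at -0.18 (adjusted p = 0.291) with scaling by library size alone. Under HFD in VWAT 8.64% of all genes rose and 6.98% fell. Of the 12, 3 rose there and none fell, namely Tfpi2 (a matrix-bound protease inhibitor, log2 0.88, adjusted p = 0.00136), F2rl1 (1.22, adjusted p = 0.0362) and Anxa5 (annexin A5, which covers phosphatidylserine, 0.54, adjusted p = 0.0177). That count was 1 without VWAT HFD library 2, VWAT SD library 2 or VWAT SD library 3, and 1 gene fell without VWAT HFD library 3. F2rl1 also did not pass without VWAT HFD library 1 (adjusted p = 0.0543). Tfpi2 passed in all of its 20 alternatives (adjusted p 2.96e-08 to 0.016). In SWAT none of the 12 passed in edgeR's test, where 2 had an unadjusted p under 0.05. There 1 rose without VWAT HFD library 3, 1 with DESeq2's Wald test, 1 in a fit of the 2 SWAT groups only and 0 with limma voom.

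Clec11a encodes osteolectin, a secreted sugar-binding protein that acts as a growth factor for bone-forming stromal cells through an integrin that contains the alpha 11 chain. Clec11a had 30.3, 30.6 and 22.0 CPM in VWAT HFD and 18.2, 16.4 and 21.0 CPM in VWAT SD, against 72.4, 94.7 and 77.0 CPM in SWAT HFD and 56.6, 72.3 and 104 CPM in SWAT SD. The depots did not overlap, with every VWAT library under every SWAT library. The means were 27.7 ± 4.86 CPM in VWAT HFD and 18.5 ± 2.33 CPM in VWAT SD, the lowest group, against 81.4 ± 11.8 CPM in SWAT HFD, the highest, and 77.6 ± 24.1 CPM in SWAT SD. Clec11a was 2.94-fold lower in VWAT on HFD (log2 -1.56, SE 0.202, adjusted p = 6.03e-05) and 4.18-fold lower on SD (-2.06, SE 0.206, adjusted p = 5.58e-06). All 3 VWAT HFD libraries were above all 3 VWAT SD libraries, but the diet difference of 0.58 (95% interval 0.14 to 1.01) had an adjusted p of 0.0685 and did not pass. It passed without VWAT HFD library 3 (0.72, adjusted p = 0.019), SWAT SD library 1 (0.59, adjusted p = 0.0434) or SWAT SD library 3 (0.58, adjusted p = 0.0275), and in 6 of 20 alternatives in all. In SWAT the diets overlapped, with a difference of 0.07 (-0.35 to 0.50, adjusted p = 0.909) that was -0.11 with scaling by library size alone, -0.06 without SWAT HFD library 2 and -0.12 without SWAT SD library 1.

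A list of 5 genes held Clec11a, the chains of collagen-binding and osteolectin-binding integrins and Clec3b, the related lectin tetranectin. In VWAT against SWAT 1 was higher and 3 were lower on HFD, and 3 were lower on SD, against 1 higher and 2 lower, and 1 and 1, with scaling by library size alone. Itga11, the alpha 11 chain, was lower in VWAT on HFD (log2 -0.83, adjusted p = 0.0127) and at -0.48 (adjusted p = 0.137) on SD, and Clec3b was lower on both diets (-0.63 and -0.41). The count of 3 on SD was 1 without VWAT SD library 1, VWAT SD library 2 or SWAT SD library 3, and the 1 higher gene on HFD, Itgb1, was lost without any 1 of VWAT HFD libraries 1 and 2 and the 3 SWAT HFD libraries. Under HFD in VWAT, Itga11 fell (-0.71, adjusted p = 0.0463) and its partner chain Itgb1 rose (0.36, adjusted p = 0.0263), where 6.98% of all genes fell and 8.64% rose. Itga11 did not pass without VWAT HFD library 1 or 2, any VWAT SD library, SWAT HFD library 2 or SWAT SD library 1 or 2, and its adjusted p ran from 0.00766 to 0.203 over 20 alternatives. Itgb1 did not pass without VWAT HFD library 1 or 2 or VWAT SD library 2 or 3 (0.000415 to 0.139), or with scaling by library size alone (0.25, adjusted p = 0.0988), under which no gene of the list rose and Itga11 and Clec3b fell. Further, 2 genes rose without VWAT HFD library 3, SWAT SD library 1 or SWAT SD library 3.

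Mgp, matrix Gla protein, is a secreted inhibitor of calcification that binds bone morphogenetic proteins and needs vitamin K to be carboxylated. Mgp was at 197, 180 and 195 CPM in VWAT HFD and 338, 190 and 269 CPM in VWAT SD, against 23.5, 47.1 and 29.6 CPM in SWAT HFD and 32.0, 48.8 and 60.0 CPM in SWAT SD. Every VWAT library was above every SWAT library, and VWAT SD library 2 lay among the VWAT HFD libraries. Means were 191 ± 9.45 CPM in VWAT HFD and 266 ± 73.8 CPM in VWAT SD, the highest group, against 33.4 ± 12.2 CPM in SWAT HFD, the lowest, and 47.0 ± 14.1 CPM in SWAT SD. The depot difference was 5.67-fold on HFD (log2 SE 0.279, adjusted p = 1.58e-05) and 5.68-fold on SD (log2 2.51, SE 0.277, adjusted p = 1.44e-05). The diet difference was -0.48 in VWAT (95% interval -1.04 to 0.08, adjusted p = 0.226) and -0.48 in SWAT (-1.06 to 0.10, adjusted p = 0.436), and neither passed in any of 20 alternatives.

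Among 11 tested genes of the vitamin K cycle and of MGP's partners, Mgp included, 2 were higher and 5 lower in VWAT on HFD, and 3 were higher and 5 lower on SD. Besides Mgp, the gene higher on both diets was Fam20c, a kinase of secreted proteins (log2 0.85 and 0.90). Among those lower on both were Gas6 (another vitamin K-dependent protein and the ligand of TAM receptors, -1.36 and -1.33), Bmp2 and Bmp4 (bone morphogenetic proteins, -0.90 and -1.17 for Bmp2, -0.99 and -0.62 for Bmp4), and Vkorc1 (the vitamin K epoxide reductase, -0.46 and -0.51). The 5 lower genes on HFD were 3 without SWAT HFD library 1 or 2. With scaling by library size alone they were 3 on each diet, with Vkorc1 no longer passing, and 5 were higher on HFD. Under HFD in VWAT, Gas6 fell (-0.85, adjusted p = 0.0228), while Vkorc1l1 (0.34, adjusted p = 0.0278) and Furin, which cleaves proproteins (0.30, adjusted p = 0.0493), rose. Of all genes, 6.98% fell and 8.64% rose there. Gas6 did not pass without VWAT HFD library 1 or 2 or VWAT SD library 1 or 3, and neither riser passed without VWAT HFD library 2 or VWAT SD library 2 or 3, or with scaling by library size alone. Vkorc1l1 did not pass without VWAT HFD library 1 either, nor Furin without VWAT SD library 1, SWAT HFD library 2 or SWAT SD library 2, and 2 genes fell without SWAT HFD library 3. With scaling by library size alone none rose and 3 fell, Gas6 (-0.96), Nqo1 (-0.63) and Bmp4 (-0.46). In SWAT none of the 11 passed in edgeR's test, where 4 had an unadjusted p under 0.05. There 1 gene fell with DESeq2's Wald test and 1, Gas6, with scaling by library size alone, and limma voom called 0.

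Eln encodes tropoelastin, the soluble unit of elastic fibres. It had 721, 1063 and 433 CPM in VWAT HFD, against 443, 345 and 369 CPM in VWAT SD. In SWAT it had 664, 591 and 313 CPM on HFD, against 286, 321 and 233 CPM on SD. In each depot 2 HFD libraries stood well above the SD libraries and HFD library 3 lay within them. Means were 739 ± 315 CPM in VWAT HFD and 386 ± 51.0 CPM in VWAT SD, and 523 ± 185 CPM in SWAT HFD and 280 ± 44.6 CPM in SWAT SD. From high to low the order was VWAT HFD, SWAT HFD, VWAT SD and SWAT SD, and neighbours overlapped except VWAT SD and SWAT SD. The HFD difference was 1.92-fold in VWAT (log2 0.94, 95% interval 0.29 to 1.59, adjusted p = 0.0513) and 1.87-fold in SWAT (0.90, 0.25 to 1.55, adjusted p = 0.188), and neither passed. In VWAT it passed without VWAT HFD library 3 (log2 1.21, adjusted p = 0.00447) or SWAT HFD library 3 (0.94, adjusted p = 0.0285), and in 6 of 20 alternatives. Between depots Eln was at 0.50 on HFD (-0.15 to 1.15, adjusted p = 0.256) and 0.46 on SD (-0.18 to 1.11, adjusted p = 0.299). On SD all 3 VWAT libraries were above all 3 SWAT libraries, and on HFD they overlapped. The HFD value passed in 3 of 20 alternatives, without VWAT HFD library 3 (0.77, adjusted p = 0.041), without both that library and SWAT HFD library 2 (0.87, adjusted p = 0.0481) and with scaling by library size alone (0.79, adjusted p = 0.0268). The SD value passed in 1 of 20, the fit of the 2 SD groups only (adjusted p = 0.0317).

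Elastin is laid down on microfibrils with the help of fibulins and is crosslinked by lysyl oxidases. In VWAT 8 of the 22 elastic fibre genes tested rose under HFD and none fell, with a median log2 difference of 0.31 against -0.017 over all genes, of which 8.64% rose. They were the microfibril genes Fbn1 (fibrillin-1, 0.77, SE 0.222), Fbn2 (fibrillin-2, 3.22, SE 0.571), Mfap4 (1.08) and Mfap5 (1.02), the fibulin-4 gene Efemp2 (0.44), and the crosslinking enzymes Lox (0.66), Loxl1 (0.61) and Loxl2 (0.75). Fbn2 averaged 54.6 ± 44.6 CPM in VWAT HFD and 5.83 ± 0.987 CPM in VWAT SD. Over 20 alternatives each, Fbn2 (adjusted p 1.69e-05 to 0.0224), Loxl1 (3.86e-05 to 0.0474) and Loxl2 (3.18e-05 to 0.0445) passed throughout. The count of 8 became 3 without VWAT HFD library 2 or VWAT SD library 2, 4 without VWAT HFD library 1 or VWAT SD library 3, 5 without VWAT SD library 1 and 3 in a fit of the 2 VWAT groups only. Without VWAT HFD library 3 it was 11, with 3 genes lower, and with scaling by library size alone it was 8, with 3 lower. Of 9 mural cell markers, which include contractile genes, 3 rose in the same comparison, Tagln (1.74), Notch3 (0.73) and Cspg4 (0.77), and Myh11 fell (-1.42). Their part in the elastic fibre values was not tested.

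In SWAT none of the 22 passed in edgeR's test (median 0.23), where 1.11% of all genes did. At an unadjusted p under 0.05 there were 12 of 22, against 2120 of all 14266 genes. HFD and SD libraries did not overlap for 9 of 22, against 21.8% of all genes. DESeq2's Wald test called 4 there, limma voom 0, and edgeR called 4 in a fit of the 2 SWAT groups only, 5 without VWAT HFD library 3, 1 without VWAT HFD library 2 and 2 without both VWAT HFD library 3 and SWAT HFD library 2. Fbn2 (2.29, adjusted p = 0.0906), Fbn1 (0.84, adjusted p = 0.0978) and Loxl2 (0.56, adjusted p = 0.106) had the lowest adjusted p. Between the depots 6 elastic fibre genes were higher and 2 lower in VWAT on HFD, and 6 were higher and 6 lower on SD. Ltbp4 (a latent TGF-beta binding protein that also guides elastic fibre assembly, log2 2.76 on HFD and 2.58 on SD), Ltbp2 (2.70 and 3.07), Emilin1 (0.94 and 0.74), Fbln2 (fibulin-2, 1.04 and 0.91) and Fbln5 (fibulin-5, 1.00 and 1.12) were higher on both. The 2 lower on HFD were 4 without VWAT HFD library 2 and none without SWAT HFD library 2, and the 6 lower on SD were 3 without VWAT SD library 3. With scaling by library size alone 11 were higher and 0 lower on HFD, and 9 higher and 2 lower on SD, so the balance of higher and lower genes depended on the scaling.

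**Figure D2:**
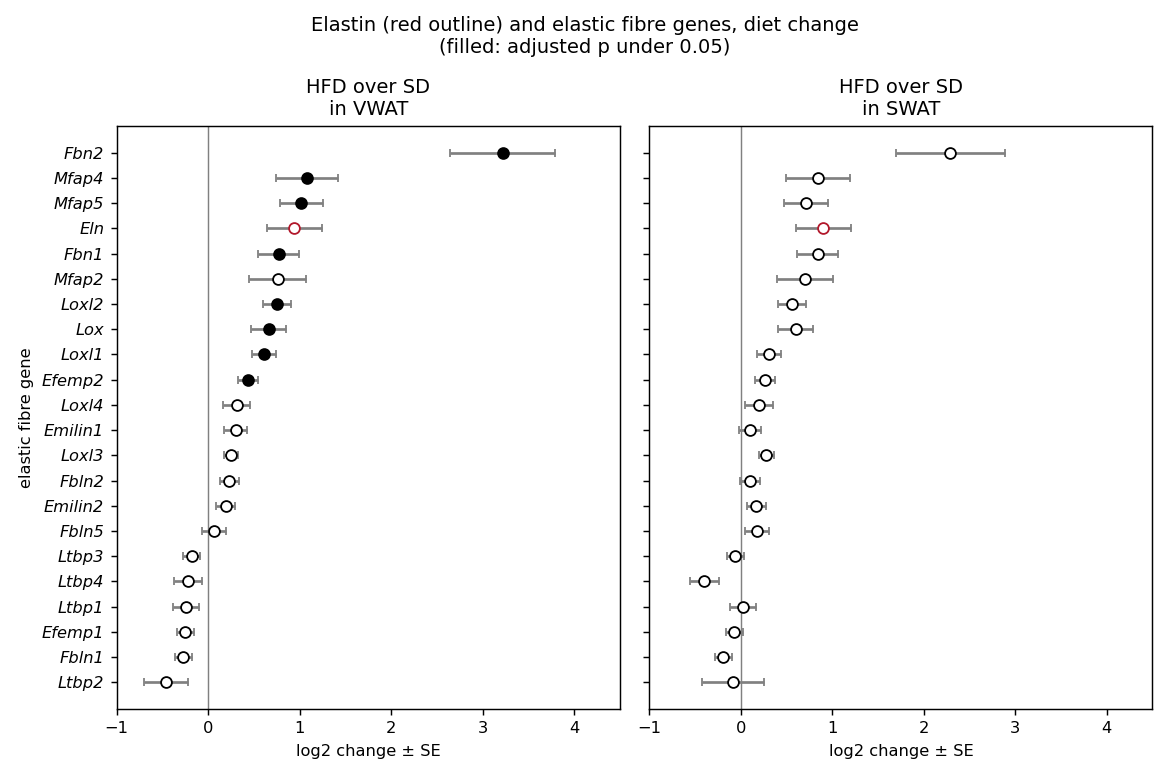
Log2 difference ± SE, HFD over SD (horizontal axis), of Eln (red outline) and 21 other elastic fibre genes in VWAT (left) and SWAT (right); filled points passed at an adjusted p under 0.05. In VWAT 8 genes passed, all above 0, with Fbn2 at 3.22, and in SWAT none passed.

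Fmo2 encodes a flavin-containing monooxygenase, an enzyme of the endoplasmic reticulum that oxidises foreign compounds and other nucleophiles. Fmo2 stood at 142, 128 and 213 CPM in VWAT HFD and 282, 215 and 251 CPM in VWAT SD, against 49.8, 84.2 and 92.6 CPM in SWAT HFD and 85.4, 102 and 148 CPM in SWAT SD. On each diet all VWAT libraries were above all SWAT libraries, and VWAT HFD library 3 (213 CPM) came close to the lowest VWAT SD library (215 CPM). Means were 161 ± 45.7 CPM in VWAT HFD and 249 ± 33.9 CPM in VWAT SD, against 75.5 ± 22.7 CPM in SWAT HFD and 111 ± 32.2 CPM in SWAT SD. VWAT HFD and SWAT SD, neighbours in the order of levels, overlapped. It was 2.12-fold higher in VWAT on HFD (log2 1.09, SE 0.255, adjusted p = 0.0062) and 2.24-fold higher on SD (1.16, SE 0.254, adjusted p = 0.00377). With diet it was at -0.63 in VWAT (95% interval -1.17 to -0.09, adjusted p = 0.105), with all 3 HFD libraries under all 3 SD libraries, and at -0.55 in SWAT (-1.10 to -0.01, adjusted p = 0.333), where they overlapped. The VWAT value passed in 3 of 20 alternatives, among them without VWAT HFD library 3 (-0.89, adjusted p = 0.019).

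The family had 4 tested genes. Fmo1 was higher in VWAT on both diets (log2 1.42 on HFD, adjusted p = 3.29e-05, and 1.48 on SD, adjusted p = 2.32e-05), so 3 of 4 were higher on HFD, with Fmo4 (1.81, under 1 CPM), and 2 of 4 on SD, and without VWAT HFD library 3 a gene was lower on HFD. Fmo5 fell under HFD in VWAT, to 17.7 ± 4.77 CPM against 30.5 ± 1.65 CPM on SD (-0.78, adjusted p = 0.00448, and 1.89e-05 to 0.0308 over 20 alternatives). The other 3 did not pass there, although Fmo2 did in some alternatives, as above, and 6.98% of all genes fell. In SWAT none of the 4 passed in edgeR's, DESeq2's or limma voom's test, with 2 at an unadjusted p under 0.05 and Fmo5 at -0.36 (adjusted p = 0.287), and 1 fell without VWAT HFD library 3.

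Cygb encodes cytoglobin, a haem protein of fibroblast-like cells that binds oxygen and turns over nitric oxide. Cygb was at 245, 213 and 239 CPM in VWAT HFD, against 323, 271 and 300 CPM in VWAT SD. In SWAT it was at 235, 233 and 213 CPM on HFD, against 289, 276 and 309 CPM on SD. In both depots every HFD library was under every SD library, by a similar amount. The means were 232 ± 16.7 CPM in VWAT HFD and 298 ± 25.7 CPM in VWAT SD, and 227 ± 12.0 CPM in SWAT HFD and 291 ± 16.7 CPM in SWAT SD. Cygb fell 1.28-fold under HFD in VWAT (log2 -0.36, SE 0.0966, adjusted p = 0.0251). In SWAT the difference was also -0.36 (SE 0.0968), with an adjusted p of 0.0985 that did not pass, and 0.0466 without VWAT HFD library 3. The VWAT call was lost without VWAT HFD library 2 (-0.30, adjusted p = 0.133), VWAT SD library 1 (-0.30, adjusted p = 0.0975) or VWAT SD library 3 (-0.35, adjusted p = 0.0789). It was also lost in a fit of the 2 VWAT groups only (-0.35, adjusted p = 0.0871), and held in 16 of 20 alternatives. Between the depots Cygb was at 0.03 on each diet (95% interval -0.17 to 0.24 on both), a value that was 0.32 (adjusted p = 0.0209) on HFD with scaling by library size alone. It turned to -0.01 on HFD without SWAT HFD library 3 and -0.00 without VWAT HFD library 1, and on SD to -0.03 without VWAT SD library 1 and -0.00 without SWAT SD library 2.

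In an annotation of another mouse build (GENCODE, GRCm38), 201 of the 2331 exon bases of Cygb overlap the opposite-strand gene Prcd, and 267 of the 8098 exon bases of Eln overlap the antisense RNA Gm30003. Whether reads were counted by strand is not stated in the sources used, so reads from those overlaps may not belong to Cygb or Eln. Of 7 tested globins and redox partners, Cyb5r3, the cytochrome b5 reductase that can reduce cytoglobin, was higher in VWAT on HFD (log2 0.66, adjusted p = 0.000368) and SD (0.51, adjusted p = 0.0028). Cyb5r3 alone passed there, but the count on SD was 2 with the replicate number as a block or with DESeq2's Wald test, 3 with scaling by library size alone or without VWAT HFD library 3, and 4 in a fit of the 2 SD groups only, and that on HFD was 2 with library size alone. Cygb was the only one of the 7 to pass with diet in VWAT in edgeR's test, where 15.6% of all genes passed. In SWAT none passed in edgeR's test, where 4 had an unadjusted p under 0.05, against 2 higher and 1 lower without VWAT HFD library 3. There 1 was lower with library size alone or DESeq2's Wald test, 1 higher in a fit of the 2 SWAT groups only, and 0 passed with limma voom. The haemoglobin genes, which have near-identical copies and are uncertain in such counts, averaged at most 5.23 CPM in any group.

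Meox2 encodes a homeobox factor of somite-derived mesoderm and vessel walls that holds cells back from dividing. Its level was 3.94, 5.58 and 5.18 CPM in VWAT HFD and 5.39, 4.23 and 4.60 CPM in VWAT SD, against 22.5, 29.8 and 25.1 CPM in SWAT HFD and 26.6, 31.5 and 44.9 CPM in SWAT SD. The depots were far apart and the diets overlapped in both. Means were 4.90 ± 0.853 CPM in VWAT HFD and 4.74 ± 0.593 CPM in VWAT SD, against 25.8 ± 3.72 CPM in SWAT HFD and 34.3 ± 9.47 CPM in SWAT SD. Meox2 was lower in VWAT, with a log2 difference of -2.40 on HFD (SE 0.198, adjusted p = 9.8e-07) and -2.85 on SD (SE 0.199, adjusted p = 2.14e-07). With diet it was at 0.04 in VWAT (95% interval -0.39 to 0.47, adjusted p = 0.912), which was -0.07 with scaling by library size alone, -0.06 without VWAT HFD library 2, -0.03 without VWAT SD library 2 and -0.00 without VWAT HFD library 3. In SWAT it was at -0.40 (-0.80 to -0.01, adjusted p = 0.33).

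Of 7 tested genes linked to MEOX factors, 2 were higher and 4 lower in VWAT on HFD, and 1 was higher and 3 were lower on SD, against 3 and 3, and 2 and 3, with scaling by library size alone. Next to Meox2, Pax1 (a paired-box factor of the somite, log2 -5.58 on HFD and -5.54 on SD) and Cdkn1a (the cell cycle inhibitor p21, a reported target of MEOX factors, -1.02 and -1.06) were lower on both diets. Tcf15, a somite factor at about 1 CPM or less, was higher on both (1.52 and 1.04), and on SD it did not pass without VWAT SD library 2, SWAT SD library 2 or SWAT SD library 3, while 2 were higher without VWAT HFD library 3. The paralog Meox1 differed from Meox2 on HFD, where it was higher in VWAT (0.74, adjusted p = 0.00714). On SD its depot difference was -0.29 with the replicate number as a block (adjusted p = 0.261) and -0.07 with scaling by library size alone (adjusted p = 0.79). Meox1 rose under HFD in VWAT (0.66, adjusted p = 0.0216). That rise did not pass without VWAT HFD library 2, VWAT SD library 2 or VWAT SD library 3, or with scaling by library size alone (adjusted p 0.00302 to 0.0952 over 20 alternatives). It was the only one of the 7 to rise there, where 2 rose and 1 fell without VWAT HFD library 3 and 1 also fell without SWAT HFD library 2. Of all genes, 8.64% rose in that comparison. In SWAT none passed in edgeR's, DESeq2's or limma voom's test, where 2 had an unadjusted p under 0.05 in edgeR's, and 1 rose without VWAT HFD library 3.

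**Figure D3:**
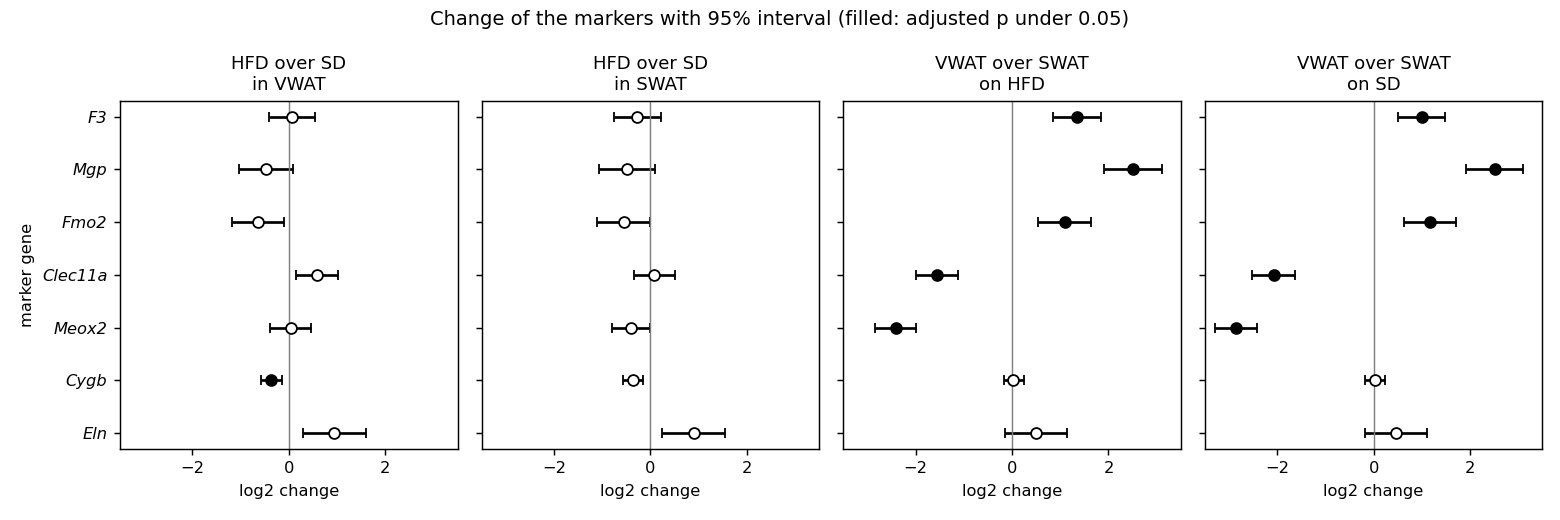
Log2 difference (horizontal axis) of each marker with its 95% interval in 4 comparisons, HFD over SD in VWAT and SWAT and VWAT over SWAT on HFD and SD; filled points passed at an adjusted p under 0.05. The depot panels hold 5 filled points each, on both sides of 0, and the diet panels hold 1, Cygb in VWAT; with scaling by library size alone F3 and Meox2 in VWAT and Clec11a in SWAT change sign with diet.

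With diet, too, the markers did not share a direction. In VWAT 1 of 7 passed, Cygb, which fell, where 15.6% of all genes passed and 6.98% fell. HFD and SD libraries did not overlap for 3 of the 7, Clec11a above and Fmo2 and Cygb below, against 33.0% of all genes. The median log2 difference of the 7 was 0.04, the value of Meox2, against -0.017 over all genes. The count of 1 became 0 without VWAT HFD library 2, VWAT SD library 1 or VWAT SD library 3, and 2 without SWAT HFD library 3, SWAT SD library 1 or SWAT SD library 3. Without VWAT HFD library 3 it was 4, with Clec11a and Eln higher and Fmo2 and Cygb lower. It was 2 with scaling by library size alone and 3 with DESeq2's Wald test.

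In SWAT none of the 7 passed in edgeR's test, where 1.11% of all genes did (0.967% higher and 0.147% lower). At an unadjusted p under 0.05 there were 4 of the 7, against 2120 of all 14266 genes. Of these 4, Eln was higher on HFD, and Cygb, Fmo2 and Meox2 were lower. Cygb passed with DESeq2's Wald test (adjusted p = 0.0082), with scaling by library size alone (adjusted p = 0.0242) and without VWAT HFD library 3, while limma voom called none. Only Cygb had HFD and SD libraries that did not overlap, against 21.8% of all genes. The median of the 7 was -0.36, the value of Cygb, against -0.001 over all genes, and Eln (0.90) and Clec11a (0.07, negative with scaling by library size alone) lay above 0.

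The diet difference in VWAT minus that in SWAT was tested as an interaction. None of the 7 passed, and none of all genes did (0% of 14266) with edgeR, where 1026 had an unadjusted p under 0.05, 0 passed with limma voom and 33 with DESeq2's Wald test. Without VWAT HFD library 3, 135 genes passed, none of them a marker. All 7 markers had an unadjusted p over 0.05. The estimates were 0.50 for Clec11a (95% interval -0.10 to 1.11), 0.44 for Meox2 (-0.14 to 1.03) and 0.34 for F3 (-0.34 to 1.03). For Cygb it was 0.00 (-0.29 to 0.30), for Mgp -0.00 (-0.82 to 0.81), for Eln 0.04 (-0.87 to 0.95) and for Fmo2 -0.08 (-0.85 to 0.69), and the sign of these 4 changed with 1 library left out. The intervals leave room for differences of either sign up to their bounds.

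Groups were also set apart by whether libraries overlapped. VWAT and SWAT libraries did not overlap for 5 of the 7 on HFD, against 36.0% of all genes, and for 6 of the 7 on SD, against 45.1%. Summed mesothelial markers (7 genes) were 130 to 157 CPM in VWAT HFD and 155 to 174 CPM in VWAT SD, against 9.63 to 16.4 CPM over the SWAT libraries. On each diet 5 of the 7 were higher and 1, Krt19, was lower in VWAT. Most of the sum in VWAT was Wt1 (108 ± 10.9 CPM on HFD and 115 ± 15.4 CPM on SD), which visceral precursors also express, while the defining markers Msln and Upk3b averaged under 2 CPM in each group and Upk1b was at 0 in all SWAT libraries. Summed mural markers (9 genes) were 280 to 398 and 350 to 375 CPM in VWAT on HFD and SD, against 236 to 267 and 254 to 312 CPM in SWAT, with Des higher in VWAT by a log2 of 3.06 and 3.91. Schwann markers (5 genes) ran the other way, at 9.33 to 15.6 and 9.68 to 12.8 CPM in VWAT, against 34.2 to 39.9 and 32.9 to 38.4 CPM in SWAT. Endothelial markers (9 genes, mostly Tek) summed to 187 to 230 and 195 to 249 CPM in VWAT, against 248 to 318 and 217 to 317 CPM in SWAT. Of 6 gate genes, 3 were lower and 1 higher in VWAT on HFD, and 4 were lower on SD. With scaling by library size alone, 2 were lower and 1 higher on HFD, and 3 lower and 2 higher on SD. Ly6a, which encodes Sca1, was lower in VWAT by -1.15 on HFD and -1.07 on SD. Cd24a, which encodes CD24, was at -2.11 on HFD and -2.21 on SD with scaling by library size alone. The part of these cells and of the gate in the marker values was not tested.

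Other genes reported for the F3-positive subset also went both ways. Of 8, 4 were higher and 2 lower in VWAT on each diet. Of all genes, 13.4% were higher and 13.4% lower on HFD, and 13.2% and 12.5% on SD. Higher on both were Rtn1 (reticulon 1, log2 2.26 on HFD and 2.18 on SD), Bgn (the matrix proteoglycan biglycan, 0.97 and 0.95), Vit (the matrix protein vitrin, 0.78 and 0.96) and Igfbp7 (an insulin-like growth factor binding protein, 0.69 and 0.67). Lower on both were Abcg1, a cholesterol exporter (-2.37 and -2.07), and H19, an imprinted non-coding RNA (-1.69 and -1.43). One of the 2 lower genes was lost on HFD without SWAT HFD library 1, and on SD without SWAT HFD library 2 or any of the VWAT SD or SWAT SD libraries. Under HFD, H19 rose in VWAT to 19.9 ± 11.3 CPM, against 4.81 ± 0.0861 CPM on SD (log2 2.05, adjusted p = 0.0126), and it rose in SWAT by a log2 of 2.31 (adjusted p = 0.0376). Also in VWAT, Bgn rose (0.52, adjusted p = 0.0313) and Vit fell (-0.55, adjusted p = 0.0348). Of all genes, 8.64% rose and 6.98% fell under HFD in VWAT, and 0.967% rose in SWAT. All 3 VWAT calls were lost without VWAT HFD library 1 or 2 or VWAT SD library 3, Vit also without VWAT SD library 1 or 2 and Bgn without VWAT SD library 2 or with scaling by library size alone, while 2 genes fell without VWAT HFD library 3. In SWAT the H19 call was lost without SWAT HFD library 1 or 2, any SWAT SD library or any VWAT SD library, and 2 genes rose without VWAT HFD library 3.

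Between depots, most markers of the DPP4-positive progenitor were lower in VWAT. Of 10 such genes, of the interstitial cell placed upstream of preadipocytes, 8 were lower and 1 higher in VWAT on HFD (median log2 -1.04), and 7 were lower and 1 higher on SD (-1.08). Dpp4 itself was at -1.46 and -1.32, Pi16 at -1.98 and -1.52, Opcml at -1.56 and -1.15 and Wnt2 at -3.64 and -4.30, and Cd55 was the one that was higher (0.70 and 0.78). Of 10 genes of committed preadipocytes, 5 were lower and 1 higher on HFD (-0.72), and 6 were lower and 2 higher on SD (-0.52). Pparg, the nuclear receptor of fat cell formation, was lower on both (-1.25 and -1.15), as were Plin2, the lipid droplet coat protein (-1.05 and -0.96), and Cd36, the fatty acid carrier (-2.34 and -1.33), while Ggt5 was higher on both (0.78 and 0.97). On SD the other higher gene was Apoe, which had an adjusted p of 0.0606 with the replicate number as a block, and the count of 2 was 1 without VWAT HFD library 2, VWAT SD library 2 or 3, SWAT HFD library 1 or any SWAT SD library. On HFD it was 2 in place of 1 without VWAT HFD library 1 or with scaling by library size alone, under which the lower genes of both lists numbered 7 and 6 of the 10 progenitor genes and 4 and 4 of the 10 preadipocyte genes on HFD and SD. The differences between these lists were not tested.

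**Figure D4:**
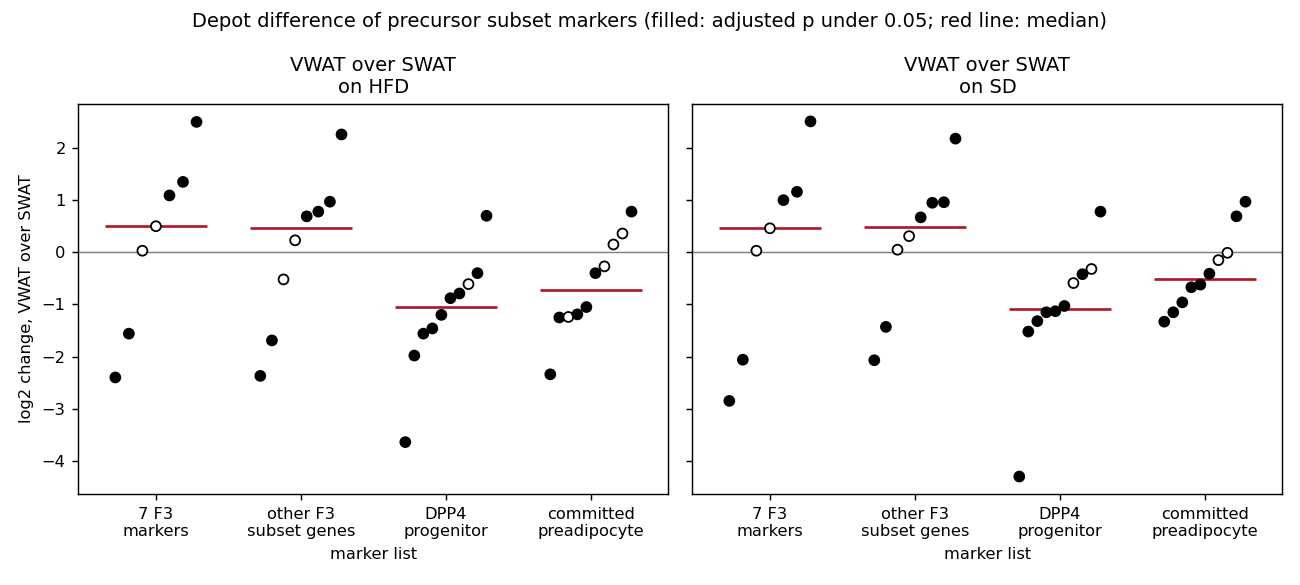
Log2 difference, VWAT over SWAT (vertical axis), of each gene in 4 lists of precursor subset markers (horizontal axis) on HFD (left) and SD (right); filled points passed at an adjusted p under 0.05 and the red line is the list's median. The 7 markers and the 8 other genes of the F3 subset spread to both sides of 0, and most DPP4 progenitor genes lie below it.

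Within SWAT SD, SWAT HFD and VWAT SD, libraries tended to be high or low in several markers at once. SWAT SD library 3 was the highest of its group for 6 of the 7 markers, by 0.09 to 0.47 over the group mean on the log2 CPM scale, and SWAT SD library 1 was the lowest for 5. SWAT HFD library 1 was the lowest of its group for 5, and SWAT HFD library 2, the library with the most leukocyte marker RNA, was above the mean for all 7 and the highest for 4. In VWAT, SD library 2 was the lowest for 6 and SD library 1 the highest for 5. Each VWAT HFD library was above its group mean for 4 of the 7. How often a library was the highest or lowest of its group over all genes was not computed. Eln was lowest in SWAT SD library 3 (-0.25) and highest in SWAT HFD library 1 (0.42). SWAT SD library 3 and SWAT HFD library 1 were also the shallowest libraries, and the part of depth in these deviations was not tested.

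**Figure D5:**
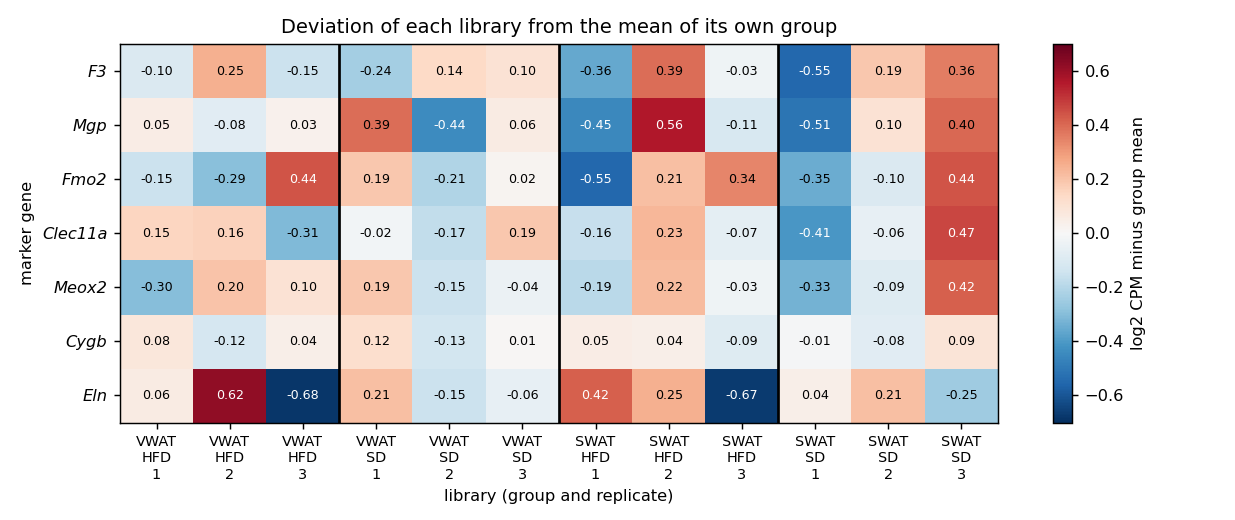
Log2 CPM of each marker (rows) in each library (columns) minus the mean of that library's own group, in colour and as numbers. SWAT SD library 3 is above its group mean in 6 markers and SWAT HFD library 2 in all 7, while Eln reaches -0.68 in VWAT HFD library 3 and -0.67 in SWAT HFD library 3.

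Over the 12 libraries the markers did not follow 1 pattern. The root mean square difference of centred log2 CPM was smallest between F3 and Fmo2 (0.43) and between Clec11a and Meox2 (0.52), and largest between Mgp and Meox2 (2.59). Next to the smallest came Fmo2 and Cygb (0.65) and F3 and Cygb (0.68), so the markers did not split into separate pairs. By the same measure, among 9442 other genes with a mean of at least 5 CPM, the genes most like F3 were Kifc3 (0.212) and Spon1 (0.248), and those most like Clec11a were Pcolce (0.202) and Tspan11 (0.256). For Fmo2 it was Crispld2 (0.218). The genes were, for Mgp, Penk (0.305) and Npr3 (0.313), and, for Meox2, Epha3 (0.281) and Cxcl14 (0.310). Cygb had the smallest differences, to Armc9 (0.090) and Meis3 (0.101), whose means were also lower on HFD than on SD in both depots. The measure is small between genes that vary little, and Cygb lay between 213 and 323 CPM in every library. Its smaller values therefore do not show a closer match in pattern than those of the other markers. Armc9 averaged 10.9 CPM on HFD and 13.5 CPM on SD in VWAT, and 10.7 and 12.7 CPM in SWAT. Meis3 averaged 20.1 and 23.9 CPM in VWAT, and 18.9 and 22.7 CPM in SWAT. Eln was most like Fbn1 (0.197), the fibrillin gene of its own list, and Pi15 (0.203). All libraries enter these measures, so they share the depot and diet groups.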

How the data were processed

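The authors sequenced poly(A) RNA of the sorted cells as 75 bp single ends from dUTP (strand-marking) libraries, per the labels' protocols. The submitters' processing notes name TopHat, HTSeq and the mouse build mm9; versions and strand setting were not stated. The authors deposited raw read counts for 14398 genes in 12 libraries. HTSeq's classes for reads without a gene, with several genes or with several alignments (3.53 to 5.57%, 1.71 to 1.95% and 14.98 to 20.81% of each library) stayed out of library sizes and tests. Libraries of 1 group differed by more than sampling noise (chi-square per degree of freedom 7.6 to 192.8).

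After filterByExpr, 14266 genes were left. edgeR 4.0.16 under R 4.3.3 fitted the 4 groups together (quasi-likelihood, robust, TMM factors 0.825 to 1.139), and p-values were adjusted by Benjamini and Hochberg over all genes; genes under 0.05 are said to have passed, risen or fallen. The 5 comparisons were diet (HFD over SD) within VWAT and within SWAT, their interaction, and depot (VWAT over SWAT) on either diet. With diet in SWAT, 2120 of the 14266 genes had an unadjusted p under 0.05 in edgeR's test, beside the unadjusted counts given for lists there. Exact tests of 3 against 3 libraries reach 0.1 at best and were not run. CPM are TMM-scaled, and log2 CPM used a prior count of 2. Between VWAT SD and SWAT SD all 3 same-numbered pairs had a correlation of deviations over 0.1 (0.177 to 0.398). The labels do not say what a number marks. Pairs with different numbers were not computed, so these correlations cannot decide whether libraries were paired. The main fit took no account of pairs, and a fit with the replicate number as a block served as an alternative. The code was tested on simulated counts.

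The 7 markers, the gene lists and the alternatives were chosen with earlier results of these data known, so no list is independent evidence of a direction. All 7 markers are named in each comparison, and from other lists up to 4 genes per comparison with the lowest adjusted p among those that passed, or all that passed where 5 or fewer did, plus the 2 genes most like each marker. Some genes that this rule selects are not reported here. Any other gene named was picked once its values were known. As alternatives served DESeq2 size factors, library size alone, no filter, DESeq2's Wald test (1.42.0), limma voom (3.58.1), a replicate block, only the 2 groups compared, each library left out and, added after the data were seen, VWAT HFD library 3 and SWAT HFD library 2 left out together. Promoter sequences are RefSeq's on GRCm38.p6.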

Additional observations from a re-analysis of the deposited data

How the results depend on the processing

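The 5 markers that differed between depots did so in all 20 alternatives on each diet. The number of markers called there was 5 to 6 on SD and 5 to 7 on HFD, and leaving out 1 library gave 5 on SD and 5 to 6 on HFD. In VWAT, 1 marker passed with diet, against 2 with library size alone, 3 with DESeq2's Wald test, 4 without VWAT HFD library 3 and SWAT HFD library 2 together, and 0 to 4 when 1 library was left out. In SWAT, 0 passed, against 1 with library size alone, 1 with DESeq2's Wald test and 0 to 1 when 1 library was left out. Outside the depot comparison on SD, not all 3 same-numbered pairs had a correlation of deviations over 0.1. With diet the correlations were -0.017 to 0.067 in VWAT (0 of 3 over 0.1) and 0.015 to 0.125 in SWAT (2 of 3). Between depots on HFD they were -0.075 to 0.184 (1 of 3). The fit with replicate number as a block called 3 markers with diet in VWAT, among them Fmo2 (-0.68) and Eln (0.85), and 3 elastic fibre genes in SWAT, with the Cygb and Eln interactions at -0.00 and -0.00. On SD, where all 3 same-numbered pairs had a correlation over 0.1, the block changed no call of a marker between depots. Library size alone moved the median of all genes to -0.126, -0.177, 0.301 and 0.236 in VWAT with diet, SWAT with diet, and between depots on HFD and SD, from -0.017, -0.001, 0.017 and 0.018, and the share of calls that were higher to 30.5, 38.4, 83.8 and 79.3% against 55.3, 86.8, 50.1 and 51.2%. It turned F3 (-0.04) and Meox2 (-0.07) in VWAT, Clec11a (-0.11) in SWAT and the Mgp interaction (0.08). That interaction was also 0.01 with DESeq2 size factors, 0.02 with DESeq2's Wald test, 0.02 with limma voom and 0.34 without both libraries, which gave -0.06 for Clec11a in SWAT, and limma voom gave -0.03 for the Eln interaction. Leaving out 1 library gave -0.07 to 0.14 for F3 and -0.06 to 0.18 for Meox2 in VWAT, -0.12 to 0.34 for Clec11a in SWAT, -0.01 to 0.09 and -0.03 to 0.10 for Cygb between depots on HFD and SD, and, for interactions, -0.34 to 0.11 (Fmo2), -0.21 to 0.35 (Mgp), -0.06 to 0.06 (Cygb) and -0.32 to 0.31 (Eln). None of these reversed values had passed, and the cause was not tested. Over all genes, 2228 passed with diet in VWAT, against 757 to 4266 with 1 library left out, 4054 without both libraries and 1246 in a fit of those groups alone. In SWAT 159 passed, against 0 to 615, 249 without both, 352 in those groups alone, 263 with library size alone, 519 with DESeq2's Wald test, 247 with the replicate block and 12 with limma voom. Library size alone gave 6954 and 5397 between depots on HFD and SD, against 3830 and 3669. Of 693 alternative values of single markers, 623 kept direction and side of the threshold, 4 lost the call, 23 gained it and 43 reversed.

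Depth allowed at least 200 reads for each marker in each library. With 3 libraries in each group, the parts of counting error and of the spread between libraries were not separated.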
